A study of Ovis aries with 9 samples.

Results

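Heat shock proteins and the DNAJ cochaperones that work with them were described in sheep ovaries sequenced by RNA-Seq. Members were the rows of the gene count table whose symbol starts with HSPA, HSPB, HSPD, HSPE or HSPH and a number, with HSP90, or with DNAJA, DNAJB or DNAJC and a number, which gave 73 of 27174 rows. They held 15 HSPA, 8 HSPB, 3 HSP90, 1 HSPD and 1 HSPH rows, and 4 DNAJA, 10 DNAJB and 31 DNAJC rows. After a filter on low counts 64 members were tested, among 16871 tested rows in all. The ovaries came from 9 adult ewes: 3 Small Tail Han sheep of the genotype FecBBFecBB (Han BB, animals W1, W2 and W4), 3 Small Tail Han sheep of the genotype FecB+ FecB+ (Han ++, W6, W7 and W8) and 3 Dorset sheep labelled wild type (D4, D5 and D6). FecB is a mutation of the BMPR1B gene that raises the ovulation rate. All ewes, Dorset controls included, had carried progestagen sponges and had received pregnant mare serum gonadotropin for estrus synchronization, and whole ovaries with ovulation points were taken after the next spontaneous estrus. The study took both Han groups as high and Dorset as low in fecundity, so a difference from Dorset is also a difference of breed.

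Heat shock proteins are chaperones that hold, fold or release other proteins. HSP70 proteins (HSPA genes) bind unfolded stretches in a cycle driven by ATP, DNAJ proteins hand clients to them and speed the hydrolysis, HSP110 proteins (HSPH1, HSPA4) exchange the nucleotide, HSP90 matures signalling proteins such as steroid receptors, and the small HSPB proteins hold unfolded clients. Some members are switched on by the heat shock factor HSF1 when proteins unfold, others are made in every cell, and some are restricted to the endoplasmic reticulum, mitochondria, muscle, testis or motile cilia. In the ovary, HSP90 and its cochaperones keep the progesterone, estrogen and glucocorticoid receptors able to bind their ligands.

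Members were sorted into classes from general knowledge of the genes. The stress-induced class held 10 rows, all tested, and the constitutive cytosolic or nuclear class 18, all tested. The endoplasmic reticulum class held 13 rows and the mitochondrial class 8, and every one was tested. Of 5 muscle-type small heat shock rows 4 were tested, of 9 testis or cilia type rows 5, of 5 rows of other tissue-restricted members 5, and of 5 unclassed rows (symbols such as HSPA12A.1) only HSPA12A.1.

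Total counts per library ranged from 10803913 in W8 to 20992535 in W7. Members took 0.763% of all counts in D4 and 1.75% in D6. W4 of Han BB and D6 of Dorset stood apart: the rank correlation between them was 0.978, against at most 0.931 between W4 and another Han BB library and 0.949 between D6 and another Dorset library. LOC101101865 took 14.9% of the counts in D4 and 7.69% in W8, and 0.0107% in D6. Markers of granulosa cells (summed level 74.8 to 260.4 CPM, reads scaled to library size), luteal cells (145 to 1295 CPM) and oocytes (5.90 to 18.6 CPM) were present in every library, and FOXL2 had no row. In bulk ovary, fewer cells of a type and less RNA per cell cannot be told apart.

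No member was called in any comparison between groups. A call needed a Benjamini-Hochberg adjusted p under 0.05 over all tested rows and a fold change above 1.5 in either direction in edgeR's quasi-likelihood test. Over the whole table the test called 0 rows (0%) in Han BB against Dorset, 1 row (0.00593%) in Han ++ against Dorset, 0 rows (0%) in Han BB against Han ++ and 0 rows (0%) for both Han groups against Dorset. The lowest adjusted p of a member was 0.749 in Han BB against Dorset, 0.576 in Han ++ against Dorset, 0.999 in Han BB against Han ++ and 0.438 for both Han groups against Dorset. limma with quality weights called 0 members in each comparison. DESeq2 called 1 member, DNAJB1, in Han BB against Dorset and for both Han groups against Dorset, and 0 members in the other comparisons. DESeq2 called 0.243% of all rows in the first and 0.531% in the second.

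Few members passed an unadjusted p under 0.05. Against Dorset, 1 of 64 members was higher in Han BB (2.1% of all rows) and 4 were lower (2.89% of all rows). Han ++ had 1 member higher than Dorset (2.61% of all rows), and 4 were lower (2.66% of all rows). Between the Han groups 0 were higher in Han BB (0.877% of all rows) and 0 lower (1.09% of all rows). With both Han groups set against Dorset, 1 was higher (2.63% of all rows) and 5 were lower (3.5% of all rows). More members had a lower than a higher estimate in Han than in Dorset: 44 of 64 in Han BB and 46 of 64 in Han ++, with median log2 fold changes of -0.17 and -0.28. Over all tested rows 8533 and 9435 of 16871 were lower, and the medians were -0.01 and -0.06. Leaving out W4 and D6 kept only W1 and W2 in Han BB and D4 and D5 in Dorset. In that fit 45 of 67 members were lower in Han BB and 39 of 67 in Han ++, with medians of -0.19 and -0.08. Over the 16854 rows tested both with and without these libraries, 8923 and 9184 were lower, with medians of -0.04 and -0.05. Between Han BB and Han ++ the median over members was 0.09, with 41 higher and 23 lower. Over all tested rows 9006 were higher and 7865 lower, with a median of 0.04. The median standard error of a member was 0.42 on the log2 scale in each of these 3 comparisons.

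**Figure D1:**
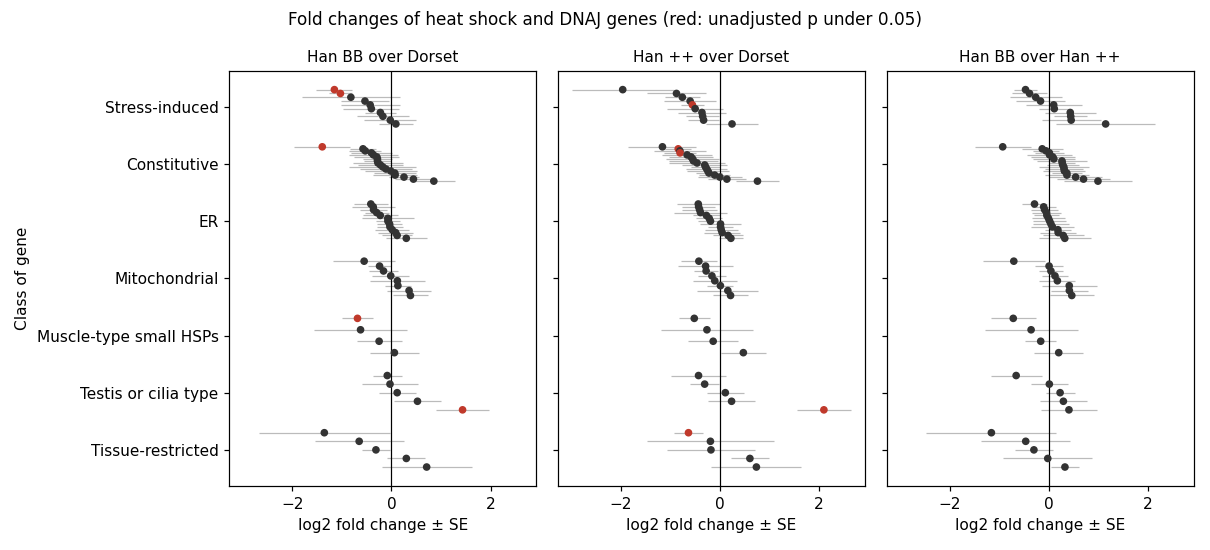
Log2 fold changes (x axis, with SE as horizontal bars) of 63 tested members in 7 classes (y axis) for Han BB over Dorset, Han ++ over Dorset and Han BB over Han ++, from edgeR on 9 libraries. Red points have an unadjusted p under 0.05; most stress-induced and constitutive members lie left of 0 in both Dorset comparisons, and DNAJB13, of the testis or cilia type class, lies farthest to the right at 1.44 and 2.09.

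Single animals differed widely in the stress-induced class. HSPA1A, the HSF1-driven HSP70, was at 29.8 CPM in D4, 48.4 in D5 and 244 in D6, at 19.7 in W1, 20.0 in W2 and 143 in W4, and at 7.78 in W6, 58.4 in W7 and 16.2 in W8. D6 and W4 were the highest libraries, W7 came next, and every group overlapped the others. From W6 to D6 the level differed 31.3-fold (163 and 4364 reads), and within a group the highest library was 7.27 times the lowest in Han BB, 7.50 times in Han ++ and 8.18 times in Dorset. Estimated log2 fold changes were -0.82 ± 1.00 (SE) in Han BB and -1.96 ± 1.03 in Han ++ against Dorset, and neither passed an unadjusted p under 0.05. Without D6 the value for Han BB against Dorset was 0.67, and without W4 it was -2.47, so its sign rested on single libraries. Without W4, Han BB against Han ++ was -0.48 for HSPA1A in place of 1.15. Reads of HSPA1A can be shared with its near-identical copies, and HSPA1B had no row.

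HSP90AA1, the inducible cytosolic HSP90, was at 967 CPM in D4, 2831 in D5 and 3484 in D6, at 932 in W1, 1097 in W2 and 3474 in W4, and at 1766 in W6, 1991 in W7 and 1381 in W8. D6 and W4 were again on top with D5 below them, and the 3 Han ++ libraries lay between the extremes of the other groups. The highest library was 3.73 times the lowest in Han BB, 3.60 times in Dorset and 1.44 times in Han ++. DNAJA1, a cytosolic DNAJ partner of HSPA8, was at 149 CPM in D4, 222 in D5, 584 in D6, 115 in W1, 129 in W2, 466 in W4, 177 in W6, 196 in W7 and 147 in W8. Outside D6 and W4 its level stayed within 1.92-fold. HSPD1, the mitochondrial chaperonin subunit HSP60, was at 343 CPM in D6 and 361 in W4, and at 95.7 to 172 CPM in the other 7 libraries. HSPH1, the inducible HSP110, was at 318 CPM in D6 and 229 in W4, and at 79.0 to 162 CPM elsewhere.

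DNAJA4 and DNAJB4, further cytosolic DNAJ cochaperones, were also highest in these libraries. DNAJA4 was at 60.7 CPM in D6 and 52.3 in W4, only just above W7 at 52.2, and at 16.9 CPM in its lowest library, D4. DNAJB4 was at 153 CPM in W4 and 122 in D6, against 63.8 to 98.5 CPM in the other 7. The remaining 3 members of the class did not share this order. HSPB1, the HSP27 that binds unfolded clients and actin, was lowest in W4 at 46.0 CPM and highest in D4 at 96.1. DNAJB1 and HSPA6 are described below.

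**Figure D2:**
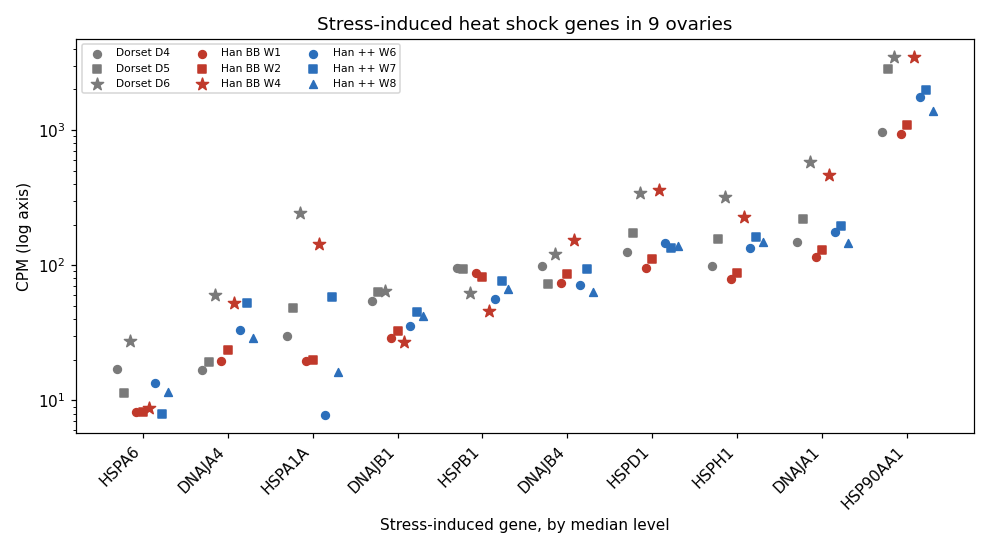
Levels in CPM (log y axis) of the 10 stress-induced members (x axis, by median level) in each of the 9 ovaries, with Dorset in grey, Han BB in red and Han ++ in blue, and the libraries D6 and W4 as stars. The stars top 7 of the 10 genes, from HSPA1A at 244 and 143 CPM to HSP90AA1 at 3484 and 3474 CPM.

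Summed over the class, stress-induced members were at 3551 ± 1833 CPM in Dorset (SD, n = 3), 2699.6 ± 1961 in Han BB and 2435 ± 387 in Han ++. HSP90AA1 alone made up 2427 CPM of this mean in Dorset, 1834 in Han BB and 1713 in Han ++, so the sums mostly follow that gene. By library the sums were 1652 CPM in D4, 3689.7 in D5, 5309.9 in D6, 1461 in W1, 1677 in W2, 4961 in W4, 2443 in W6, 2818 in W7 and 2045 in W8. The spread inside Han BB and inside Dorset exceeded the difference between any pair of group means. Of the 10 members, 9 had a lower estimate in Han BB than in Dorset and 9 in Han ++ than in Dorset. Their medians were -0.42 and -0.53, and 2 and 1 were lower at an unadjusted p under 0.05. Over all tested rows 8533 and 9435 of 16871 had a lower estimate, and 2.89% and 2.66% were lower at that level. Without W4 and D6 the medians of the class were -0.62 and -0.16.

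The high levels in W4 and D6 were not limited to the inducible class. Both libraries stood above all other 7 in 27 of 64 members (42.2%), against 18.6% of all tested rows, and below all other 7 in 6 members, against 17.2% of all tested rows. By class the count above was 7 of 10 stress-induced, 10 of 18 constitutive, 6 of 13 endoplasmic reticulum, 2 of 8 mitochondrial, 2 of 5 testis or cilia type and 0 of 4 muscle-type members. By family it was 11 of 25 heat shock rows and 16 of 39 DNAJ rows. D6 was the highest library of all for 25 members (39.1%, against 9.49% of all tested rows), and W4 for 16 (25%, against 21.3%). The 6 members lowest in W4 and D6 were DNAJC5, the cysteine string protein of secretory vesicles, HSPB2, HSPB6 and HSPB7, DNAJC12, a partner of the aromatic amino acid hydroxylases, and HSPA12A. Over the 63 tested members with reads in every library, the median ratio of the highest to the lowest library was 2.85 over 9 libraries and 1.92 over the other 7, and the number over 3-fold was 31 and 10.

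**Figure D3:**
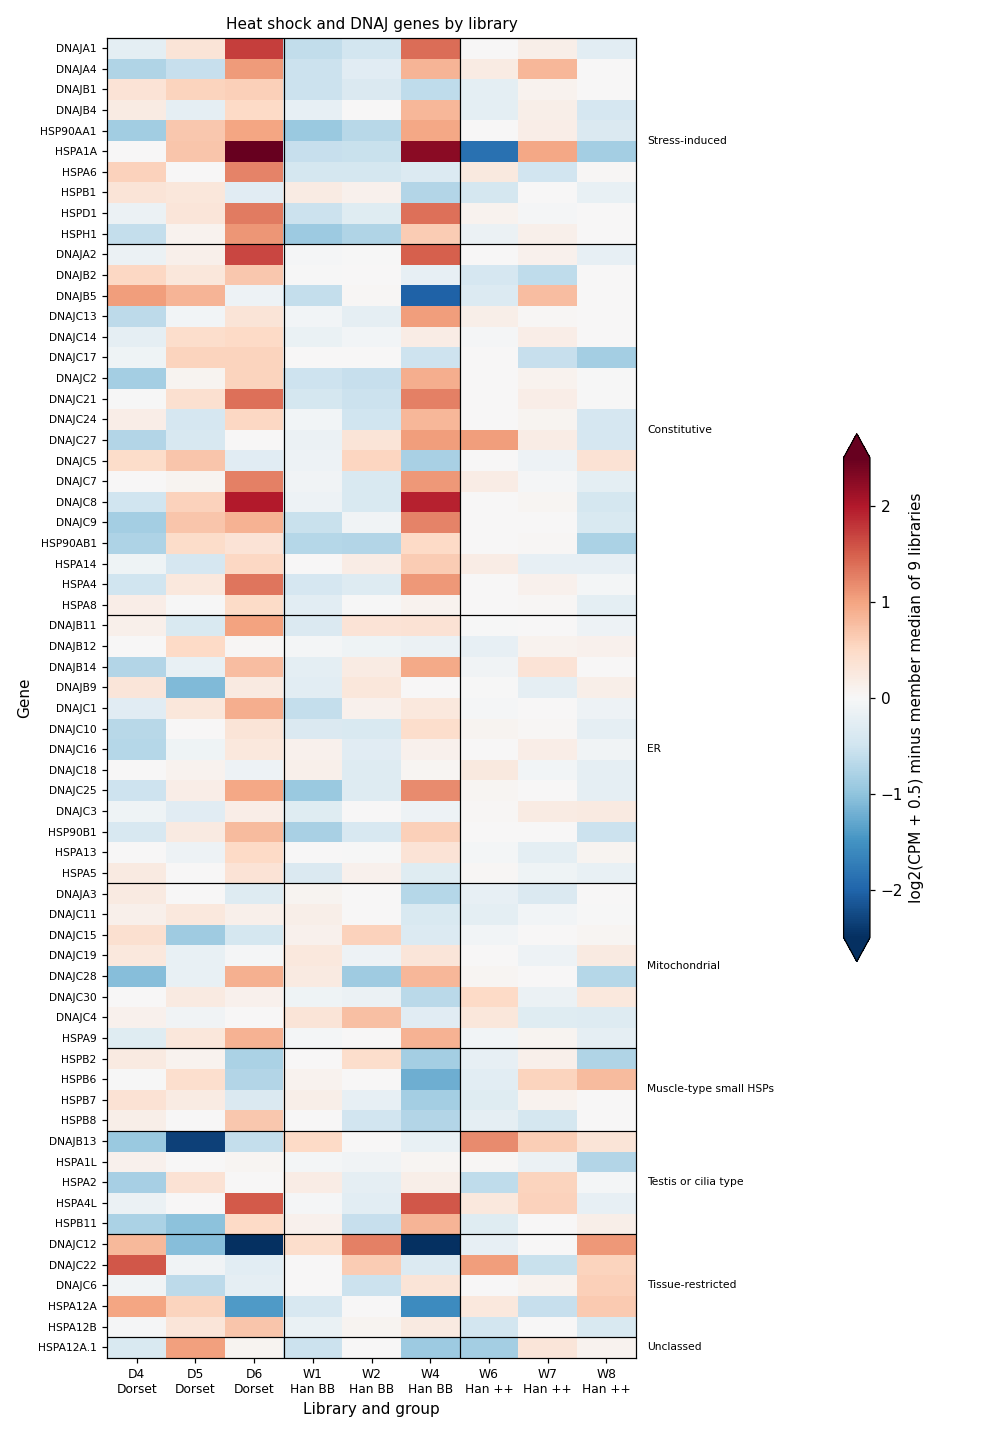
Heat map of log2(CPM + 0.5) minus each member's median over the 9 libraries, for the 64 tested members (rows, by class) and the 9 libraries (columns, by group), red above and blue below the median. The columns D6 and W4 are red over most of the stress-induced and constitutive classes and blue for HSPB2, HSPB6, HSPB7, DNAJC12 and HSPA12A.

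DNAJB1, the HSP40 that recruits HSPA1A and HSPA8 and is itself a target of HSF1, had the lowest unadjusted p of all members in Han BB against Dorset and for both Han groups against Dorset. It was at 54.0 CPM in D4, 62.9 in D5 and 64.3 in D6, at 29.2 in W1, 32.7 in W2 and 27.0 in W4, and at 35.6 in W6, 45.1 in W7 and 42.4 in W8. All 3 Dorset libraries lay above all 6 Han libraries, and the 3 Han ++ libraries lay above the 3 Han BB libraries. Dorset libraries lay above all Han libraries for 2 members, DNAJB1 and DNAJB2 (1.93% of all rows), and below them for 1, DNAJB13 (1.83% of all rows). Between the Han groups, Han BB lay above Han ++ for 0 members (4.78% of all rows) and below for 2, DNAJB1 and DNAJC3 (4.59% of all rows). Group levels of DNAJB1 were 60.4 ± 5.58 CPM in Dorset (SD, n = 3), 29.6 ± 2.90 in Han BB and 41.0 ± 4.90 in Han ++.

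The log2 fold change of DNAJB1 in Han BB against Dorset was -1.03 ± 0.23 (SE), with an adjusted p of 0.749 by edgeR (Benjamini-Hochberg over all tested rows) and 0.0265 by DESeq2. For both Han groups against Dorset it was -0.79 ± 0.20, with an adjusted p of 0.438 by edgeR and 0.0456 by DESeq2. For Han ++ against Dorset it was -0.56 ± 0.23 (unadjusted p = 0.0355 by edgeR), which was under 0.05 in 7 of 18 settings and reached 0.130 without W6. In Han BB against Han ++ it was -0.47 ± 0.23 (unadjusted p = 0.0694). Its unadjusted p in Han BB against Dorset was under 0.05 in 18 of 18 settings tried, with log2 fold changes from -1.11 to -0.92, and W4 and D6 lay with their own groups. Without these libraries DESeq2's adjusted p was 0.180 in Han BB against Dorset and 0.196 for both Han groups.

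The immediate early genes, which are induced within minutes of a stimulus, also had lower estimates in Han than in Dorset. All 6 tested immediate early genes of 7 with a row had lower estimates in both Han groups, and FOS, DUSP1 and IER2 passed an unadjusted p under 0.05 in Han BB against Dorset. In Han ++ FOS and DUSP1 did, and without W4 and D6, 5 passed in Han BB and 4 in Han ++. Of all rows 2.89% in Han BB and 2.66% in Han ++ were lower at that level, and 4.15% and 4.32% without both libraries. EGR1 was tested in none of the comparisons and JUN had no row. The summed level of the immediate early genes was 467 CPM in D4, 547 in D5 and 181 in D6, and 164 to 237 CPM in the 6 Han libraries. D6 lay within the Han range for this sum. Its DNAJB1 level, at 64.3 CPM, was the highest of all libraries. The part of the immediate early genes in the DNAJB1 difference was not tested.

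HSPA6, a strictly inducible HSP70, was at 17.1 CPM in D4, 11.3 in D5 and 27.6 in D6, at 8.21 in W1, 8.27 in W2 and 8.76 in W4, and at 13.5 in W6, 8.01 in W7 and 11.6 in W8. The 3 Han BB libraries lay within 1.07-fold of each other and below all Dorset libraries, and Han ++ overlapped both groups. W4, the library with high HSPA1A, was thus not high for HSPA6. HSPA6 differed between Han BB and Dorset by a log2 fold change of -1.15 ± 0.36 (unadjusted p = 0.00899, adjusted p = 0.968 by edgeR), and the unadjusted p was 0.0593 without D6.

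DNAJB5 and DNAJB2 are DNAJ proteins of the constitutive class, and DNAJB2 is best known from neurons, where it feeds ubiquitinated clients to the proteasome. DNAJB5 was at 16.7 CPM in D4, 14.5 in D5 and 7.09 in D6, at 5.03 in W1, 7.99 in W2 and 1.54 in W4, and at 6.11 in W6, 13.8 in W7 and 7.83 in W8. W4 was lowest and D6 lowest of the Dorset libraries, and the groups overlapped through D6 and W2. The log2 fold change in Han BB against Dorset was -1.39 ± 0.57 (unadjusted p = 0.0324, adjusted p = 0.975 by edgeR) and -1.27 without W4 and D6. Its unadjusted p was under 0.05 in 13 of 18 settings and 0.0890 without D4. DNAJB2 was at 41.8 CPM in D4, 35.9 in D5 and 46.9 in D6, at 29.2 in W1, 29.2 in W2 and 25.3 in W4, and at 21.6 in W6, 18.6 in W7 and 29.2 in W8. Every Dorset library lay above every Han library, and the Han groups overlapped. Against Dorset the log2 fold change in Han ++ was -0.84 ± 0.26 (unadjusted p = 0.00811, adjusted p = 0.724 by edgeR), under 0.05 unadjusted in 18 of 18 settings.

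DNAJC17, a DNAJ protein linked to splicing, was at 25.3 CPM in D4 and 40.2 in both D5 and D6, at 27.4 in W1, 27.2 in W2 and 18.9 in W4, and at 27.3 in W6, 18.1 in W7 and 14.9 in W8. D4 lay inside the Han range. Its log2 fold change in Han ++ against Dorset was -0.81 ± 0.32 (unadjusted p = 0.0289, adjusted p = 0.891 by edgeR), and without W8 the unadjusted p was 0.128.

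**Figure D4:**
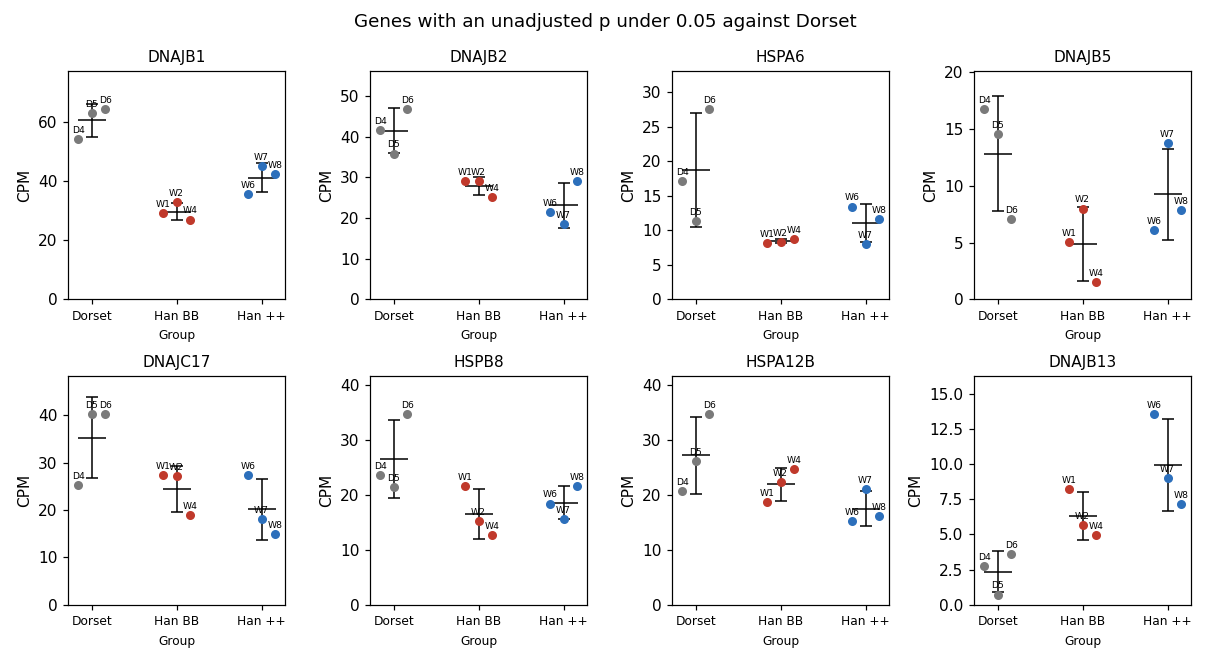
Levels in CPM (y axis, from 0) of the 8 members with an unadjusted p under 0.05 in a comparison with Dorset, as points per ovary with the mean and SD of each group of 3 (black bars). DNAJB1 and DNAJB2 are the genes whose Dorset points all lie above the Han points, DNAJB13 the one whose Dorset points all lie below, at 0.721 to 3.57 CPM against 4.95 to 13.5 CPM.

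HSPA8, the HSP70 of every cell, was at 1713 ± 305 CPM in Dorset (SD, n = 3), 1409 ± 170 in Han BB and 1397 ± 139 in Han ++, and its highest library, D6, was 1.68 times its lowest, W1. The log2 fold change was -0.28 ± 0.29 in Han BB and -0.29 ± 0.29 in Han ++ against Dorset. HSP90AB1, the constitutive cytosolic HSP90, varied more, at 1073 CPM in D4, 2501 in D5, 2300 in D6, 1113 in W1, 1102 in W2, 2576 in W4, 1826 in W6, 1853 in W7 and 1060 in W8. W4, D5 and D6 were its highest libraries, and the 3 groups overlapped.

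Among the 18 constitutive members 13 had a lower estimate in Han BB and 16 in Han ++ than in Dorset. Over all tested rows these were 8533 and 9435 of 16871. Medians of the class were -0.25 and -0.39. With W4 and D6 left out the counts were 15 and 12 and the medians -0.28 and -0.12, and the median farther from 0 was then that of Han BB. DNAJC8, which associates with the spliceosome, was at 228 CPM in D6 and 219 in W4 and at 40.1 to 85.7 CPM in the other 7. DNAJA2, another cytosolic partner of HSPA8, was at 267 CPM in D6 and 237 in W4 and within 1.26-fold over the other 7, from 72.6 to 91.6 CPM. The pair that binds nascent chains at the ribosome, DNAJC2 and HSPA14, lay at 76.6 and 69.1 CPM in D6 and at 97.3 and 75.5 CPM in W4, each above all other libraries. DNAJC27 was the constitutive member with the highest estimate in Han, at 0.86 ± 0.43 in Han BB and 0.75 ± 0.43 in Han ++ against Dorset, and it did not pass an unadjusted p under 0.05 in either. Its choice came after its values were seen, as for DNAJC8, DNAJA2, DNAJC2 and HSPA14.

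In the endoplasmic reticulum class 0 of 13 members passed an unadjusted p under 0.05 in any comparison. HSPA5 (BiP), the HSP70 of the endoplasmic reticulum, was at 1004 CPM in D4, 864 in D5 and 1092 in D6, at 671 in W1, 934 in W2 and 702 in W4, and at 884 in W6, 800.4 in W7 and 760 in W8. Its 1.63-fold range did not set W4 apart, and the groups overlapped. HSP90B1 (GRP94), its HSP90 counterpart, was at 2921 CPM in D6 and 2551 in W4, against 960 to 1982 CPM elsewhere. The log2 fold changes of HSP90B1 were -0.37 ± 0.44 in Han BB and -0.44 ± 0.44 in Han ++ against Dorset. Class medians were -0.07 in Han BB and -0.19 in Han ++ against Dorset, and 0.02 in Han BB against Han ++. They were -0.08, 0.07 and -0.11 without W4 and D6, so both comparisons with Han ++ changed sign. Of the endoplasmic reticulum stress genes outside the family, 6 of 7 with a row were tested, 0 passed an unadjusted p under 0.05, and XBP1 had no row.

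In the mitochondrial class, HSPA9 (mortalin), the HSP70 of the matrix that drives protein import, was at 519 CPM in D6 and 524 in W4 and at 231 to 345 CPM in the other 7 libraries. Its log2 fold changes against Dorset were -0.01 ± 0.37 in Han BB and -0.43 ± 0.37 in Han ++. HSPE1, the partner of HSPD1, had no row, and 0 of 8 members passed an unadjusted p under 0.05 in any comparison.

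The muscle-type small heat shock proteins were low in W4 and, except HSPB8, in D6. HSPB6, a small heat shock protein of smooth and cardiac muscle, was at 12.5 CPM in D4, 16.9 in D5 and 7.32 in D6, at 13.3 in W1, 12.5 in W2 and 5.08 in W4, and at 10.3 in W6, 18.6 in W7 and 22.01 in W8. W4 and D6 were its lowest libraries, as they were for HSPB2 (2.27 and 2.40 CPM, against 2.49 to 6.30 CPM elsewhere) and HSPB7 (0.134 and 0.391 CPM, against 0.429 to 0.973 CPM). HSPB7 rested on 2 to 18 reads per library. Smooth muscle markers did not share this order as a set. Of 8 markers, 0 lay below all other libraries in both W4 and D6. W4 alone was lowest for ACTA2 (1336 CPM), TAGLN (214 CPM) and CNN1 (115 CPM), while D6 was highest for MYH11 and LMOD1 (76.1 CPM). The summed level of the 8 markers was 9194 CPM in W4 and 13073 in D6 within a range of 6845 to 13145 CPM. MYH11 made up 4144 CPM of the sum in W4 and 5940 CPM in D6. The part of smooth muscle in the HSPB2, HSPB6 and HSPB7 levels was not tested.

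HSPB8, which works with BAG3 in clearing damaged filaments, was at 23.6 CPM in D4, 21.5 in D5 and 34.7 in D6, at 21.6 in W1, 15.3 in W2 and 12.7 in W4, and at 18.4 in W6, 15.6 in W7 and 21.6 in W8. D6 was highest and W4 lowest, and the remaining Dorset and Han libraries met at about the same level. Han BB differed from Dorset by a log2 fold change of -0.68 ± 0.31 (unadjusted p = 0.0487, adjusted p = 0.975 by edgeR). Without D6 the unadjusted p was 0.204, and without W4 and D6 the log2 fold change was -0.29. Of the 8 smooth muscle markers 7 had a lower estimate in Han BB than in Dorset. Of these, 3 (CNN1, DES and LMOD1) passed an unadjusted p under 0.05, against 2.89% of all rows that were lower at that level. The part of smooth muscle in the HSPB8 values was not tested. HSPB3 had 0 reads in all but W6 and W8.

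Of the 5 tested testis or cilia type members, DNAJB13 had the lowest unadjusted p in both Dorset comparisons. DNAJB13 is a radial spoke protein of the axoneme in sperm tails and motile cilia. It was at 2.72 CPM in D4, 0.721 in D5 and 3.57 in D6, at 8.21 in W1, 5.67 in W2 and 4.95 in W4, and at 13.5 in W6, 9.002 in W7 and 7.18 in W8. All 6 Han libraries lay above all 3 Dorset libraries, and the Han groups overlapped at W1 and W8. Levels were 2.34 ± 1.46 CPM in Dorset (SD, n = 3), 6.28 ± 1.71 in Han BB and 9.91 ± 3.28 in Han ++, on 16 to 284 reads per library.

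The log2 fold change of DNAJB13 was 1.44 ± 0.54 in Han BB against Dorset (unadjusted p = 0.0217, adjusted p = 0.975 by edgeR's quasi-likelihood test) and 2.09 ± 0.54 in Han ++ against Dorset (unadjusted p = 0.00274, adjusted p = 0.576). Between the Han groups it was -0.66 ± 0.52. Without W4 and D6 the values against Dorset were 2.09 and 2.62, with adjusted p of 0.505 and 0.145. DESeq2 without both libraries called DNAJB13 in Han ++ against Dorset (adjusted p = 0.00277, 1.4% of all rows called) and for both Han groups against Dorset (adjusted p = 0.00594, 1.02% of all rows called). On all 9 libraries DESeq2 did not call it. Its unadjusted p was under 0.05 in 18 of 18 settings tried in Han ++ against Dorset and in 17 of 18 in Han BB against Dorset, where it was 0.0666 without W1.

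Markers of ciliated epithelium, the cell layer with motile cilia that lines the oviduct, also had higher estimates in Han than in Dorset. Of 10 listed, 9 had a row, all were tested, and all 9 had a higher estimate in Han BB and in Han ++ than in Dorset, with medians of 0.93 and 1.33. In Han BB 1 of the 9, ROPN1L, passed an unadjusted p under 0.05, and in Han ++ 4 did, namely ROPN1L, FOXJ1, TPPP3 and CAPSL. Over all tested rows 8338 and 7436 of 16871 had a higher estimate, and 2.1% and 2.61% were higher at that level. ROPN1L, a protein of the axoneme, was the 1 row of the table that edgeR called in Han ++ against Dorset, at 2.71 ± 0.31 (adjusted p = 0.0446). Without W4 and D6, 8 and 9 of the 9 were higher, with medians of 0.74 and 1.83. At an unadjusted p under 0.05, 3 and 7 were then higher, against 3.22% and 4.56% of all rows. Between the Han groups all 9 were then lower in Han BB, with a median of -1.06, and 6 passed that level (1.93% of all rows). On all libraries 5 of the 9 markers were lower in Han BB, with a median of -0.19, and 2 passed it (1.09% of all rows). Their summed level was 136 to 241 CPM in Dorset, 222 to 432 CPM in Han BB and 316 to 462 CPM in Han ++, none was at 0 in any library, and PIFO had no row. The sums of Dorset and Han BB overlapped, with D6 at 241 CPM above W2 at 222. FOXJ1, the factor that sets up motile cilia, was at 2.61 to 3.13 CPM in Dorset, 2.88 to 5.84 CPM in Han BB and 8.32 to 11.2 CPM in Han ++. W4 had the highest level of all libraries for 6 of the 9 markers. For FOXJ1 (2.88 CPM), ROPN1L (8.50 CPM) and TPPP3 (66.6 CPM), as for DNAJB13, W4 was the lowest of the Han libraries. The part of ciliated cells in the DNAJB13 difference was not tested.

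No other member of this class passed an unadjusted p under 0.05 on all 9 libraries, and HSPB11 did so without W4 and D6. HSPA2, the HSP70 of the synaptonemal complex in spermatocytes, was at 45.9 to 106 CPM in Dorset, 70.2 to 92.7 CPM in Han BB and 52.3 to 120 CPM in Han ++. HSPA1L, a copy of HSPA1A made in the testis, was at 6.54 to 12.2 CPM in all libraries. HSPA4L, an HSP110 of the testis, was at 99.3 CPM in D6 and 99.7 in W4 and at 28.1 to 50.9 CPM elsewhere. HSPB11 (IFT25), a subunit of the transport particle of cilia, was at 21.5 CPM in D6 and 27.5 in W4 and at 7.17 to 16.6 CPM elsewhere. Without W4 and D6 its log2 fold change in Han ++ against Dorset was 0.90 ± 0.32 (unadjusted p = 0.0166, adjusted p = 0.431 by edgeR), in place of 0.23 on all libraries. For both Han groups against Dorset it was then 0.82 ± 0.30 (unadjusted p = 0.0190, adjusted p = 0.416 by edgeR). DNAJC5B, a vesicle cochaperone of the testis, had at most 25 reads in a library, DNAJC5G and HSPB9 reached at most 0.280 and 0.0905 CPM, DNAJB7 had 0 reads in all libraries, and none of these 4 was tested.

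Among members restricted to other tissues, HSPA12B, the HSP70 relative of endothelium, was at 20.7 CPM in D4, 26.1 in D5 and 34.6 in D6, at 18.7 in W1, 22.3 in W2 and 24.7 in W4, and at 15.2 in W6, 21.1 in W7 and 16.03 in W8. D6 was highest, and the Han ++ range reached into the Dorset range at W7. Its log2 fold change in Han ++ against Dorset was -0.64 ± 0.28 (unadjusted p = 0.0470, adjusted p = 0.943 by edgeR), and without D6 the unadjusted p was 0.200. Endothelial markers did not pass this level in any comparison: 3 of 5 had a row, and their summed level was 339 to 553 CPM over all libraries. HSPA12A ranged from 0 reads in W4 and 1 in D6 to 37 in D5, the second widest range of log2 CPM after HSPA1A, at 4.45 against 4.95, and DNAJB13 followed at 4.03. The row HSPA12A.1, whose relation to HSPA12A the table does not give, was at 11.3 to 44.3 CPM. DNAJC12 was at 8.56 CPM in W4 and 9.16 in D6, and at 25.6 CPM in D5 to 132 CPM in W2 elsewhere.

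Leaving out W4 and D6 turned the direction of many members between the Han groups. Between Han BB and Han ++, 27 of 64 members changed sign, 24 of them from higher to lower in Han BB, and 44 members were then lower. The median over members went from 0.09 to -0.17 and that of the stress-induced class from 0.10 to -0.46. All tested rows turned in the same direction, with a median that went from 0.04 to -0.02. Of these rows 7865 of 16871 were lower on all libraries and 8778 of 16854 without both. How many of all rows changed sign was not counted. HSPH1 at -0.84 ± 0.28, DNAJA4 at -0.84 ± 0.31 and DNAJC21, a ribosome biogenesis cochaperone, at -0.55 ± 0.25 then passed an unadjusted p under 0.05, each with an adjusted p of 0.993 by edgeR. The counts without both libraries were 0 higher (1.48% of all rows) and 3 lower (1.93% of all rows) of 67 members tested.

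Against Dorset fewer members changed sign without W4 and D6, 8 of 64 in Han BB and 11 of 64 in Han ++. Sign changes over all rows were not counted here either. At an unadjusted p under 0.05, 1 member was then higher (3.22% of all rows) and 4 lower (4.15% of all rows) in Han BB than in Dorset. Han ++ had 4 members higher than Dorset (4.56% of all rows) and 1 lower (4.32% of all rows), and the 4 were DNAJB13, DNAJA4, HSPB11 and DNAJC27. DNAJA4 was then at 1.08 ± 0.31 with an adjusted p of 0.301 by edgeR, in place of 0.24 ± 0.53 on all libraries. D6 and W4 were its highest libraries, and Dorset then held D4 and D5 only. For both Han groups against Dorset 3 were higher (4.14% of all rows) and 3 lower (5.42% of all rows), and 41 of 64 members were lower with and without both libraries.

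**Figure D5:**
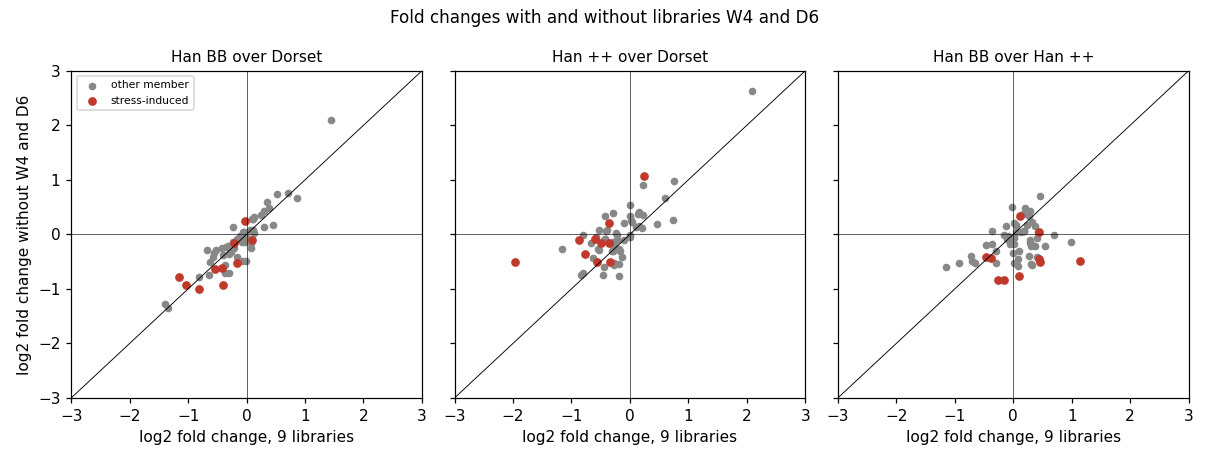
Log2 fold changes of the 64 tested members on all 9 libraries (x axis) and without W4 and D6 (y axis), with stress-induced members in red and the line of equal values. In Han BB over Han ++ 24 members lie at the lower right, higher on all libraries and lower without both, while DNAJB13 lies in the upper right of both Dorset panels.

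Heat shock factors and cochaperones outside the family were counted beside the members. Of 34 listed genes 31 had a row and 29 were tested, of which 8 (27.6%) were highest in W4 and D6 and 4 lowest. Over all tested rows 18.6% were highest and 17.2% lowest in both. At an unadjusted p under 0.05, 0 were higher (2.1% of all rows) and 1 lower (2.89% of all rows) in Han BB against Dorset. In Han ++ against Dorset 1 was higher (2.61% of all rows) and 1 lower (2.66% of all rows). In Han BB against Han ++ 0 were higher (0.877% of all rows) and 1 lower (1.09% of all rows). The lower genes were CDC37, which loads kinases onto HSP90, at -0.65 ± 0.28, BAG1, a nucleotide exchange factor of HSP70, at -0.55 ± 0.23, and BAG3, the partner of HSPB8, at -0.79 ± 0.33, in that order. After leaving out W4 and D6, 0 were lower in each of these comparisons, and 0, 1 and 1 were higher. Of all rows 4.15%, 4.32% and 1.93% were then lower, and 3.22%, 4.56% and 1.48% higher. HSF1, the factor that induces the stress class, was at 8.29 CPM in W4 and 8.38 in D6, its lowest levels, against 14.5 to 22.4 CPM in the other 7. Of the chaperonin genes, whose products form a folding chamber for actin and tubulin, 8 of 8 were tested and 0 passed an unadjusted p under 0.05.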

How the data were processed

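RNA of 9 ovaries was sequenced on an Illumina instrument. According to the labels and methods, the authors aligned reads to Oar_v3.1 with TopHat and kept uniquely mapped reads, and they deposited raw counts per gene and library. Not given in the sources used here are the program that counted reads, its strand setting and versions. The kit is given as TruSeq RNA in the labels and as stranded total RNA with ribosomal depletion in the methods. Since unique mapping drops reads shared by near-identical copies, levels of HSPA1A, HSPA1L, HSPA6 and HSPA8, and of HSP90AA1 and HSP90AB1, are uncertain. Without strand, reads of antisense partners cannot be told apart. Gene lengths were not used here, so levels of different genes are not comparable. Sums over genes, and the part of a gene in a sum, also depend on transcript length.

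The counts were tested with edgeR 4.0.16 in R 4.3.3 (TMM, filterByExpr, quasi-likelihood F-test, 1 fit of 9 libraries by group) over all 16871 tested rows, with Benjamini-Hochberg adjustment. CPM used TMM library sizes. DESeq2 1.42.0, limma 3.58.1 with quality weights, other filters and size factors, a term for W4 and D6, and leaving out libraries were alternatives. DESeq2 without W4 and D6 was added after seeing the data. The members, classes and marker lists were chosen with earlier results of these data known. Named with values were the stress-induced, testis or cilia and muscle-type members, HSPA8, HSP90AB1, HSPA5, HSP90B1 and HSPA9, per pairwise comparison the 3 highest and 3 lowest members at an unadjusted p under 0.05, and the 3 with the widest range. Only the edgeR test was tried on simulated counts with known changes, and only for Han ++ against Dorset. Plots were made in Python 3.11.15 (matplotlib 3.10.9). A single gene of the cochaperone list is not reported here.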

Additional observations from a re-analysis of the deposited data

How the results depend on the processing

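edgeR called no member in any comparison under any normalization, filter, term or set of libraries tried, leaving out each library in turn included (0 to 0 members), nor did limma on all libraries. DESeq2 called 1 member in Han BB against Dorset and 1 for both Han groups against Dorset (DNAJB1 in both). DESeq2 without W4 and D6 called 1 in Han ++ against Dorset and 1 for both Han groups against Dorset (DNAJB13 in both). The cause of these differences between tools was not tested. No paired analysis was possible because no pair of groups shares more than 1 animal number (W4 and D4, W6 and D6) and the labels state no link between animals of different groups.

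Counts of members at an unadjusted p under 0.05 depended on single libraries. In Han BB against Dorset the 4 lower members became 10 without W4 and 2 without D6, and the 1 higher became 4 without D4. In Han ++ against Dorset the 4 lower members became 1 without W8 or D6. For both Han groups the 5 lower became 12 without W4, and in Han BB against Han ++ DESeq2 without W4 and D6 gave 4 lower in place of 0. The share of all rows at that level was not counted in these fits. A change particular to the members and a change of the whole table therefore cannot be told apart. With a library left out, the log2 fold change of a named member was rated unchanged in 1029 comparisons and moved in 15. Where a member had an unadjusted p under 0.05 on all libraries, unchanged meant only the same sign and call. For the others it meant a shift smaller than the spread between replicates. With 3 animals per group and a biological coefficient of variation of 0.472, the spread between animals limits the precision. Depth limits HSPB7 and HSPA12A, and also the 9 untested members, none of which had over 25 reads in a library.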

Other observations

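Of the 29 tested genes of the cochaperone list, CHORDC1, FKBP5, ST13, GRPEL2, SEC63, CACYBP, PPID and TTC4 lay above all other 7 libraries in W4 and D6, and HSF1, HSPBP1, SERPINH1 and UNC45A lay below. Of all tested rows 18.6% lay above and 17.2% below in the same way. SERPINH1 (HSP47), the collagen chaperone of the endoplasmic reticulum, was at 419 CPM in W4 and 707 in D6, below the other 7 libraries, which lay between 901 in W1 and 2055 in D4. FKBP5, a glucocorticoid-induced HSP90 cochaperone, was at 604 CPM in W4 and 402 in D6, above the other 7, which lay between 150.4 in D4 and 353 in W6. CHORDC1, an HSF1-regulated HSP90 cochaperone, was at 177 CPM in W4 and 198 in D6, and at 60.2 to 115 CPM elsewhere. SEC63, a DNAJ protein of the translocation channel, was at 440.02 CPM in W4 and 475 in D6, and at 111 to 219.7 CPM elsewhere. CRYAB, a small heat shock protein of lens and muscle, reached at most 0.0973 CPM and was not tested. These 5 were chosen after seeing their values, and the group differences of SERPINH1, FKBP5, CHORDC1 and SEC63 against Dorset did not pass an unadjusted p under 0.05 for both Han groups together.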
